A study of Rattus norvegicus and Mus musculus with 17 samples.

Results

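The genes described here are 8 enzyme genes of cholesterol synthesis, Sqle, Lss, Mvd, Nsdhl, Hmgcs1, Idi1, Fdft1 and Dhcr7, found by their symbols, without regard to letter case, in 3 tables of liver RNA sequencing. Of these 8 genes, 6 were listed in at least 1 table, among 11532 different symbols in all. The mouse table held 4649 genes, and of the 8 it listed Sqle and Lss. The table of the Morris hepatoma held 9082 genes and listed Hmgcs1, Mvd, Sqle, Nsdhl and Dhcr7. The table of regenerating rat liver held 2093 genes and listed Mvd. Idi1 and Fdft1 were listed in no table and have no value here.

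Every animal was male. C57BL/6 mice received 50 mg/kg of the liver carcinogen diethylnitrosamine (DEN) at the age of 14 days and, 30 days later, 2 mg/kg of TCPOBOP, an agonist of the nuclear receptor CAR that promotes liver tumours. Both mouse groups had this treatment, and the groups were liver of 5 months without tumours yet (n = 3) and liver of 8 months that bore them (n = 3), so that age and tumour cannot be told apart. ACI rats carried Morris hepatoma after an injection into the liver, at 10 weeks of age, of cells of a single transplantable line, MH3924a. Tumours were collected 2 weeks later (n = 4). Regenerating liver came from ACI rats, 10 to 12 weeks old, 24 hours after partial hepatectomy (n = 4). Untreated ACI liver (n = 3), matched in age to the hepatoma rats, was the control of both rat groups, so both rat comparisons share these 3 libraries. Whether every library stands for a separate animal is not stated in the labels, so the spread behind each p-value may be technical.

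Cells make cholesterol from acetyl-CoA. Hmgcs1 acts in the first steps, which lead to mevalonate. Mvd makes isopentenyl diphosphate, Idi1 isomerises it, and Fdft1 joins farnesyl units into squalene. Sqle oxidises squalene and Lss closes its rings to give lanosterol, the first sterol. Nsdhl then acts in removing methyl groups from the sterol, and Dhcr7 reduces a double bond of the ring system at the end of one branch. The liver is a main site of this pathway, and its genes are classical targets of the transcription factor SREBP-2, which cells keep inactive when sterols are plentiful. SREBP acts at promoters together with NF-Y and Sp1.

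Promoter windows of rat Mvd, which was higher in hepatoma, and of Nsdhl, Hmgcs1 and Dhcr7, which were lower, are shown to set the motifs next to their start sites side by side. The windows come from RefSeq (assembly GRCr8), run from 250 bases before the start site to 50 bases after it, and are printed 5′ to 3′ on the gene's strand. Capitals mark the NF-Y box (CCAAT) and the GC box bound by Sp1 (GGGCGG) on either strand. Mvd lies at chr19:67414925-67415224 on the minus strand, Nsdhl at chrX:155817110-155817409, Hmgcs1 at chr2:53382054-53382353 and Dhcr7 at chr1:208444184-208444483, these 3 on the plus strand.
Mvd: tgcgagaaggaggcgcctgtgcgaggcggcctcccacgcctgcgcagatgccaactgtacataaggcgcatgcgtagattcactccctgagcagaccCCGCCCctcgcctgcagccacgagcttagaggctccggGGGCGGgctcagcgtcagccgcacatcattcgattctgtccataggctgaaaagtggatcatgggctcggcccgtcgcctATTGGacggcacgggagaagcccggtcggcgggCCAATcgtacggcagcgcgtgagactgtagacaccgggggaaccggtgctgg
Nsdhl: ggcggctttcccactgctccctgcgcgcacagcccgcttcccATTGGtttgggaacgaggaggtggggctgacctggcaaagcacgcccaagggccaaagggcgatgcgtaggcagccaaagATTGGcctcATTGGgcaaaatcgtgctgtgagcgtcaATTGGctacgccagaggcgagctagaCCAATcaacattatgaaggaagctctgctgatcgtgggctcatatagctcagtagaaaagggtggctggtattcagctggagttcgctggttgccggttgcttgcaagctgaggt
Hmgcs1: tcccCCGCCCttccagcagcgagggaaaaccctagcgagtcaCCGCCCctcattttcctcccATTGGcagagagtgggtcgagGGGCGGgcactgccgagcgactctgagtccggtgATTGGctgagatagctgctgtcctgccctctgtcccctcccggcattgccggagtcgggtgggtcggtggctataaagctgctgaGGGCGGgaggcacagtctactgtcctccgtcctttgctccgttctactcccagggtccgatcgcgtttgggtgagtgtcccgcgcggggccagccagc
Dhcr7: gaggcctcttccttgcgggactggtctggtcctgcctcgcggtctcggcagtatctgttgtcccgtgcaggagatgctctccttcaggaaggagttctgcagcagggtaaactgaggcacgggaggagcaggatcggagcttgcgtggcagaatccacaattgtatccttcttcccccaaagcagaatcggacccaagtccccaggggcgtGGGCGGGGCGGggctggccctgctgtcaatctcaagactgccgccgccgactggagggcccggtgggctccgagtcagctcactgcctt
RefSeq windows were matched for 6 of the 8 genes (these 4, Lss and Idi1), and not for Sqle and Fdft1. The NF-Y box was found in 5 of the 6, against 37.49% of all 33469 rat promoter windows of this length. Nsdhl held 5 of these boxes, more than any other of the 6, and Dhcr7 held none. The GC box was found in 4 of the 6 genes, against 33.06% of all windows. The 2 GC boxes of Dhcr7 overlap, and Nsdhl and Idi1 held none. A core of the sterol element that SREBP binds (TCACNCCAC), searched on either strand, was in none of the 6 windows, and in 1.117% of all windows. These are matches of letters in short windows and describe no binding.

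Expression was given as RPKM, a read count scaled by transcript length and by the mapped reads of the library. Each table lists only genes whose deposited p-value was under 0.05, and recomputing showed that p to be uncorrected, so a listed gene had to differ between its groups at that level, and a gene that is not listed may be unchanged or may be variable. Differences are given as log2(RPKM + 1) with their SE from limma, and on this scale low genes appear to change less than they do. A call needs a Benjamini-Hochberg adjusted p under 0.05, counted over all protein-coding genes of the annotation. The whole numbers of reads behind the RPKM values could be recovered for all 8 pairs of gene and table, within 0.02 reads, as the smallest whole numbers that give these values. They ran from 242 to 11587 reads per library, which means a counting error of 6.43% down to 0.929%. Depth relative to the first library of a table ran from 0.943 to 1.22. Libraries of the same group differed by more than counting noise where this was computed, which left out the regenerating libraries. The closest pair of the rat controls, libraries 1 and 2, gave a chi-square of 25.1 on 5 genes. The other pairs within the control and hepatoma groups gave between 183 and 5039. The closest mouse pair gave 7.37 on 2 genes.

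**Figure D1:**
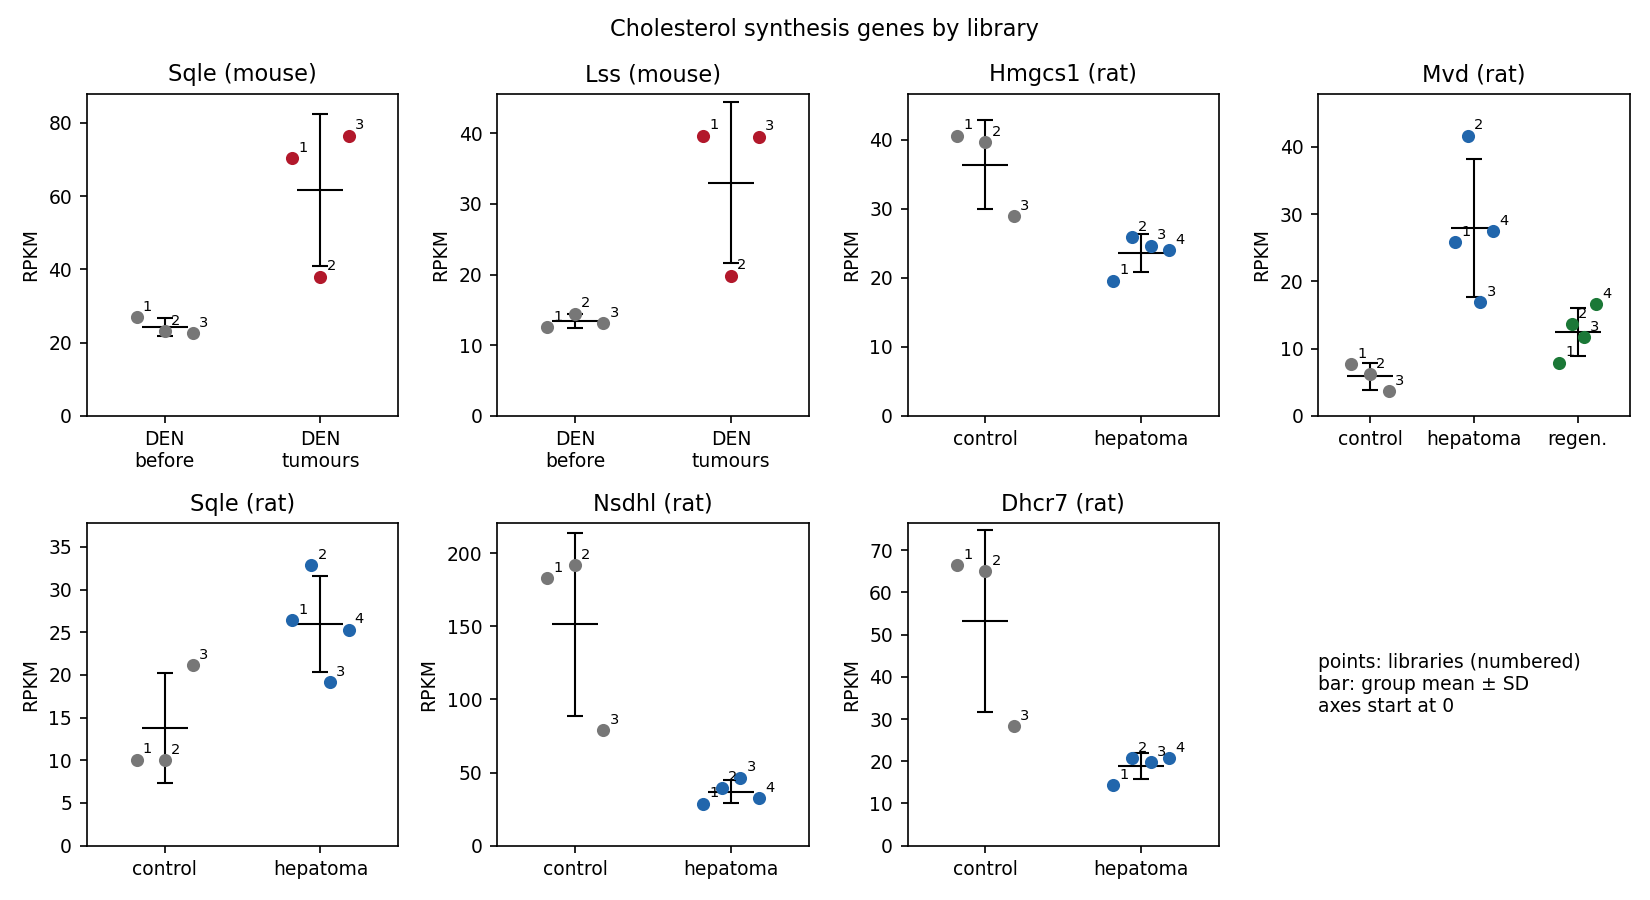
RPKM of each listed gene in every library, with the axis starting at 0. Numbered points are libraries and bars are group means with SD. Both mouse genes lay above every library taken before tumours, and control library 3 of the rats stood away from libraries 1 and 2 for Sqle, Nsdhl and Dhcr7.

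In mouse liver, transcripts of Sqle and Lss, whose enzymes lead from squalene to lanosterol, were more abundant with DEN tumours than before them. Sqle (GeneID 20775) stood at 27.1, 23.2 and 22.7 RPKM in libraries 1 to 3 before tumours, and at 70.4, 38.0 and 76.5 RPKM in libraries 1 to 3 with tumours. The groups did not overlap, and library 2 with tumours was the lowest of its group. Sqle rose from 24.3 ± 2.40 to 61.7 ± 20.7 RPKM (SD, n = 3 each), a log2 difference of 1.25 ± 0.25 (limma, adjusted p = 0.0160). Lss (GeneID 16987) stood at 12.6, 14.5 and 13.1 RPKM before tumours and at 39.7, 19.9 and 39.5 RPKM with tumours. Library 2 with tumours was again the lowest of its group, and the groups did not overlap. Lss rose from 13.4 ± 0.985 to 33.0 ± 11.4 RPKM, a log2 difference of 1.18 ± 0.25 (limma, adjusted p = 0.0211).

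Both listed genes were thus called higher. Of all 3684 mouse genes tested, 67.3% were called, 17.8% higher and 49.4% lower, and the groups did not overlap in 100% after rounding, with a median log2 difference of -0.56. The difference of Sqle was above that of 93.6% of the tested genes, and that of Lss above 92.9%. Setting the library medians equal raised the median of all genes to -0.16, and quantile normalization likewise. With equal medians Sqle differed by 1.65 and Lss by 1.57, with quantile normalization by 1.89 and 1.72, and both genes stayed past the threshold.

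These calls rest on few libraries. Sqle was no longer called when library 1, 2 or 3 before tumours was left out (adjusted p = 0.0558, 0.0692 and 0.0681, limma) or without library 1 with tumours (0.0534). Lss lost its call without any of the libraries before tumours (0.0962, 0.0650 and 0.0819 in the order of their numbers), and without library 1 or 3 with tumours (0.0657 and 0.0642). Without library 2 with tumours both differences were larger, 1.56 for Sqle and 1.50 for Lss (adjusted p = 0.00025 and 0.00019).

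Sqle and Lss kept a similar proportion to each other in all 6 libraries. The level of Sqle was 2.16, 1.60 and 1.73 times that of Lss before tumours, and 1.78, 1.92 and 1.94 times with tumours, so the ranges of this ratio overlapped while the mean levels rose 2.54-fold and 2.47-fold. Their deviations from the group means correlated with r = 0.92 over the 6 libraries, which share their depth and their tissue makeup. Genes outside the lists whose levels followed the mean of Sqle and Lss most closely were Mcm3 (r = 0.997), a subunit of the replicative helicase, Chst12 (0.997), Cd81 (0.996), Itga3 (0.993) and Ddit4l (0.993), each over 6 libraries in a table of genes chosen for a difference between these groups.

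Cell division markers moved with Sqle and Lss in part. Their sum was highest in library 2 before tumours and in library 1 with tumours, as Lss was. Sqle was highest in library 1 before tumours and in library 3 with tumours. The 7 listed of 8 division markers summed to 3.30, 4.51 and 3.41 RPKM before tumours and to 28.2, 13.0 and 24.9 RPKM with tumours, lowest in library 2 of that group, as for both cholesterol genes. The 4 listed of 10 hepatocyte markers summed to between 37977 and 50449 RPKM before tumours and to between 122296 and 137991 RPKM with tumours. Albumin (Alb) and Apoa1 made up most of that sum and were called higher, whereas the urea cycle enzyme Cps1 differed by -1.24 without passing (adjusted p = 0.135, limma), from 191 ± 39.2 to 88.4 ± 46.6 RPKM. With equal library medians Alb differed by 2.16 and was called higher. With quantile normalization its difference was 0 and it was not called. That scaling sets a gene equal wherever it holds the same rank in every library, so this 0 is no measure of its level. Library 2 with tumours held the lowest hepatocyte sum of its group as well. The 4 listed of 10 macrophage and Kupffer cell markers summed to between 63.8 and 72.5 RPKM before tumours and to between 25.2 and 45.5 RPKM with tumours. Clec4f (-1.97) and Timd4 (-0.96) were called lower, though neither was under equal library medians or quantile normalization, and Vsig4 (-1.56) did not pass. Cd68 went the other way, from 14.5 ± 0.695 to 20.2 ± 1.22 RPKM (0.45, adjusted p = 0.0483, limma), and was called higher under both scalings. Cd68 lost its call whichever library was left out (adjusted p up to 0.211), and so did Clec4f and Timd4 on leaving out any of the 3 libraries taken before tumours (early libraries) or tumour-bearing library 3 (up to 0.162 and 0.0987).

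Markers of further cell types differed as well, where 17.8% of all tested mouse genes were called higher and 49.4% lower. The 4 listed of 7 endothelial markers summed to between 14.5 and 19.9 RPKM before tumours and to between 22.8 and 38.4 RPKM with tumours, and Emcn (1.40), Pecam1 (0.75) and Cdh5 (0.74) were called higher, also under both scalings, while Tek (-0.52) did not pass. Pecam1 and Cdh5 each lost the call without some single libraries, 5 and 4 of the 6, with adjusted p up to 0.195 and 0.167. The stellate cell marker Acta2 differed by 1.70 and was called higher (adjusted p = 0.0035), with 15.3 ± 4.25 RPKM with tumours, and the cholangiocyte marker Sox9 rose from 3.59 ± 1.06 to 9.86 ± 1.62 RPKM (1.26, adjusted p = 0.0053). The erythroid marker Alas2 fell from 73.9 ± 6.07 to 9.65 ± 4.64 RPKM (-2.89, adjusted p = 0.00067). Each of these was the 1 gene of its list in the mouse table, and the calls of Acta2, Sox9 and Alas2 held under both scalings and whichever library was left out. The neutrophil marker S100a8 (0.68) did not pass, though it was called higher under both scalings. The part of these cell types in the difference of Sqle and Lss was not tested, and in tissue RNA a change in the number of cells of a type and a change in RNA per cell cannot be told apart.

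Of 11 other synthesis enzymes, the mouse table listed Tm7sf2, a sterol C14 reductase that acts after lanosterol. Tm7sf2 stood at 107, 105 and 123 RPKM before tumours and at 66.3, 34.5 and 43.9 RPKM with tumours, with no overlap. Its log2 difference was -1.24 ± 0.23 (limma, adjusted p = 0.0096), opposite to that of Sqle and Lss, but it passed under neither of the scalings. The listed fatty acid enzymes that SREBP-1 controls did not follow Sqle and Lss either: of 5 tested, 4 were called lower and 0 higher. Of all tested mouse genes, 49.4% were called lower and 17.8% higher. Elovl6, which elongates fatty acids, differed by -1.89, malic enzyme Me1 by -2.05, the acetyl-CoA synthetase Acss2 by -1.45 and fatty acid synthase Fasn by -1.55. Fasn was not called once any of the 3 early libraries was left out (adjusted p up to 0.0543). With equal library medians 3 of the 5 were called lower, and with quantile normalization 2. Acaca, which makes malonyl-CoA, differed by -0.58 without passing (adjusted p = 0.0622).

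Among 11 uptake genes 4 were tested in mouse liver, 1 higher and 2 lower. For these and the lists that follow, the shares over all tested mouse genes were 17.8% higher and 49.4% lower. Scarb1, the liver's HDL receptor, rose from 71.4 ± 6.84 to 134 ± 24.4 RPKM (0.89 ± 0.17, adjusted p = 0.0123), as Sqle and Lss did, also under both scalings, but not without library 2 before tumours (adjusted p = 0.0642). The receptor gene Lrp1 differed by -0.87 and the sterol carrier gene Stard5 by -0.95, neither called under the scalings, and Stard5 failed when early library 1 or 2 or tumour-bearing library 1 or 3 was left out (adjusted p up to 0.0805). Lipa differed by -0.54 without passing (0.0734). Of 12 SREBP control genes 3 were tested, and Insig2 (-1.31), Srebf1 (-0.93) and Rnf139 (-0.62) were called lower. Under equal medians 1 of these 3 was called lower and under quantile normalization 0, and Srebf1 lost its call without library 2 before tumours (0.0549) and Rnf139 without library 1 (0.0514). Soat2 was called higher (0.63), also under both scalings, but not when early library 1 or 2 or tumour-bearing library 3 was left out (adjusted p up to 0.109). The carboxylesterase gene Ces1d was called lower (-3.41), and Lcat (-0.57), the sterol exporter Abcg1 (0.44), Pdss1 (0.35) and Dhdds (0.27) did not pass, although Abcg1 and Dhdds were called higher under both scalings. Of 6 tested genes of bile acid synthesis 5 were lower, among them Hsd3b7 (-2.05), Cyp7b1 (-3.27) and Cyp27a1 (-2.86), and Cyp39a1 was higher (1.95), though not when early library 1 or tumour-bearing library 3 was left out (adjusted p up to 0.0591).

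In rat hepatoma Mvd and Sqle were called higher on the deposited scale, and Hmgcs1, Nsdhl and Dhcr7 lower. Nsdhl, Dhcr7 and Hmgcs1 stayed lower when library medians or distributions were set equal, whereas Mvd was then not called and Sqle turned negative without a call. Mvd (GeneID 81726), an early enzyme, stood at 7.76, 6.22 and 3.70 RPKM in control libraries 1 to 3 and at 25.9, 41.7, 16.9 and 27.5 RPKM in hepatoma libraries 1 to 4. All hepatoma libraries lay above all controls. Mvd rose from 5.89 ± 2.05 (n = 3) to 28.0 ± 10.2 RPKM (SD, n = 4), a log2 difference of 2.05 ± 0.31 (limma, adjusted p = 0.00041), but it did not pass under equal library medians (0.39, adjusted p = 0.703) or quantile normalization (0.46, adjusted p = 0.462).

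Sqle (GeneID 29230) stood at 10.1, 10.1 and 21.2 RPKM in the controls and at 26.4, 32.8, 19.2 and 25.3 RPKM in hepatoma. Control library 3 lay above hepatoma library 3, so the groups overlapped. Sqle was called higher, 13.8 ± 6.40 against 25.9 ± 5.60 RPKM (0.93 ± 0.28, adjusted p = 0.0273, limma), yet its difference turned to -0.74 with equal library medians and to -0.60 with quantile normalization, neither past the threshold. Its call was also lost without control library 1 or 2 (adjusted p = 0.122 and 0.118, limma) and without hepatoma library 1, 2 or 4 (0.0641, 0.0904 and 0.0647).

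Hmgcs1 (GeneID 29637), at the start of the pathway, stood at 40.6, 39.6 and 29.0 RPKM in the controls and at 19.6, 26.0, 24.7 and 24.0 RPKM in hepatoma. The groups did not overlap. Hmgcs1 was called lower, 36.4 ± 6.46 against 23.6 ± 2.75 RPKM, by a log2 difference of -0.60 ± 0.19 (limma, adjusted p = 0.0330). Without control library 1 or 2 it was not called (adjusted p = 0.158 and 0.140, limma), nor without hepatoma library 1, 3 or 4 (0.109, 0.0515 and 0.0756). Under equal library medians and quantile normalization Hmgcs1 stayed lower, by differences of -2.26 and -1.89.

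Nsdhl (GeneID 309262), which acts after lanosterol, was the most abundant of the 5 in control liver, at 183, 192 and 79.1 RPKM. Hepatoma libraries 1 to 4 held 28.8, 39.6, 46.6 and 32.5 RPKM, all below every control. Nsdhl fell from 151 ± 62.5 to 36.9 ± 7.89 RPKM, a log2 difference of -1.93 ± 0.32 (limma, adjusted p = 0.00073), and the ratio of the means was 4.10. Its difference was below that of 93.4% of all tested genes.

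Dhcr7 (GeneID 64191), the last reductase in one branch of the pathway, stood at 66.4, 65.0 and 28.3 RPKM in the controls. Hepatoma libraries held 14.3, 20.7, 19.8 and 20.7 RPKM, with no overlap. Dhcr7 fell from 53.2 ± 21.6 to 18.9 ± 3.11 RPKM, a log2 difference of -1.37 ± 0.30 (limma, adjusted p = 0.0045). Nsdhl and Dhcr7 kept their calls under both scalings (-3.59 and -3.03 with equal medians, -2.86 and -2.60 with quantile normalization) and without any single library.

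All 5 listed genes were thus called, 2 higher and 3 lower. Of the 8233 genes tested for hepatoma, 94.3% were called, 85.5% higher and 8.73% lower, with a median log2 difference of 1.58, and in 98.6% the groups did not overlap. Against that background, the difference of Mvd was above that of 67.6% of the tested genes, whereas 75.7% lay above Sqle, 88.4% above Hmgcs1 and 91.6% above Dhcr7. Equal library medians moved the median of all genes to -0.08 and quantile normalization to 0.11. Relative to such a median all 5 genes except Mvd stood lower, and Nsdhl, Hmgcs1 and Dhcr7 passed the threshold.

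In control liver the mean levels, which RPKM gives per transcript length, fell in the order Nsdhl, Dhcr7, Hmgcs1, Sqle and Mvd. Dhcr7 and Hmgcs1 overlapped there, whereas each other pair of neighbours did not overlap between their libraries. The highest mean was 25.7 times the lowest in the controls. In hepatoma the order was Nsdhl, Mvd, Sqle, Hmgcs1 and Dhcr7, every neighbouring pair overlapped, and the highest mean was 1.95 times the lowest. The level of Mvd was between 0.0324 and 0.0467 of that of Nsdhl in the controls and between 0.364 and 1.05 of it in hepatoma. Setting library medians equal leaves such a ratio as it is, whereas quantile normalization moves it: the log2 differences of Mvd and Nsdhl were 2.05 and -1.93 as deposited, 0.39 and -3.59 with equal medians, and 0.46 and -2.86 with quantile normalization.

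Control library 3 stood apart from the other 2 controls, with more Sqle and less Nsdhl, Dhcr7, Hmgcs1 and Mvd. Its 7 listed division markers summed to 10.8 RPKM, against 2.77 and 1.95 RPKM in libraries 1 and 2. Without it the 5 genes kept their calls (limma): Mvd differed by 1.80, Sqle by 1.26 (adjusted p = 0.0011), Hmgcs1 by -0.75 (0.0077), Dhcr7 by -1.76 and Nsdhl by -2.34. Deviations from the group means correlated over the 7 libraries with r = 0.96 between Hmgcs1 and Dhcr7, 0.93 between Nsdhl and Dhcr7, and 0.91 between Nsdhl and Hmgcs1. Sqle and Nsdhl deviated in opposite directions (r = -0.84). These 7 points include control library 3, which is far from the others in each of these genes.

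**Figure D2:**
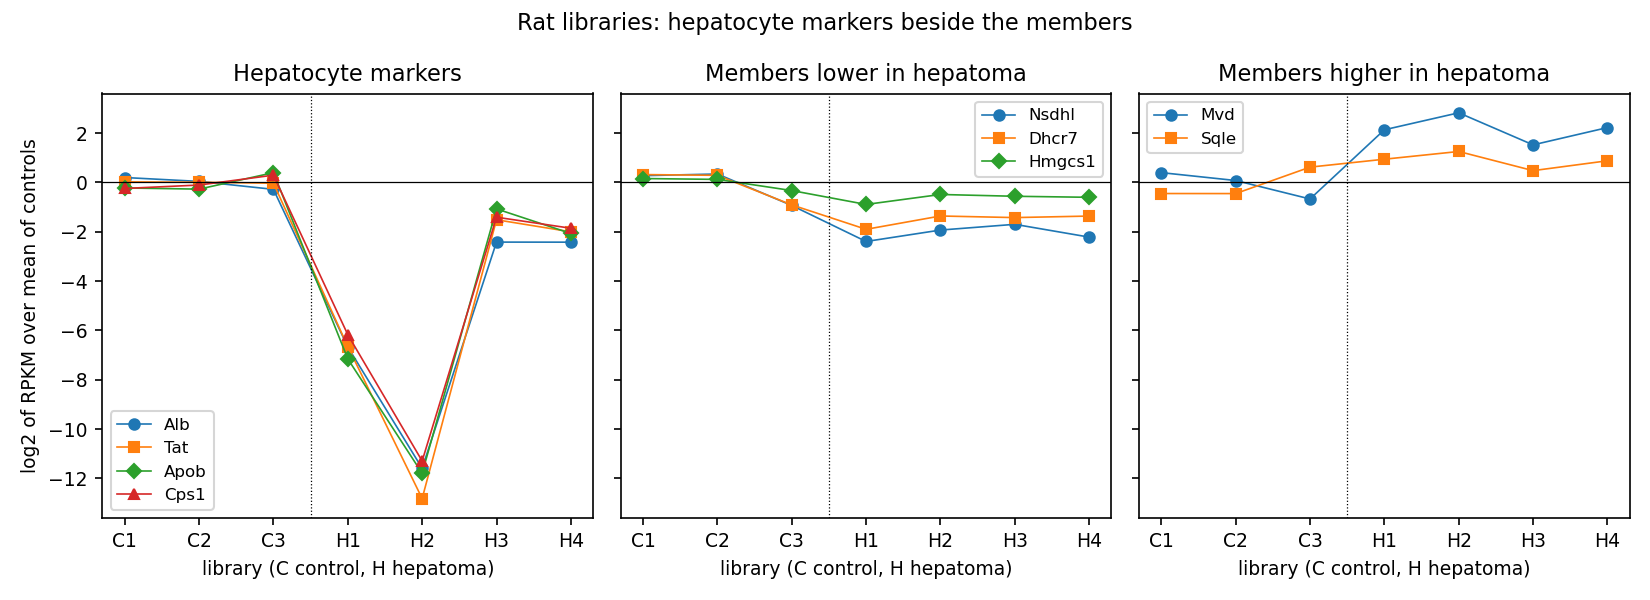
Level in each rat library relative to the mean of the 3 controls, as log2 of the RPKM ratio, for 4 hepatocyte markers (left), the 3 genes lower in hepatoma (middle) and the 2 higher ones (right). Hepatocyte markers differ widely among hepatoma libraries, far more than the cholesterol genes do; the direction of Sqle changes with the scaling of the libraries, as the text gives.

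Hepatoma libraries 3 and 4 held more hepatocyte transcripts than libraries 1 and 2. The 9 listed of 10 hepatocyte markers summed to 1108 and 104 RPKM in hepatoma libraries 1 and 2, to 27680 and 22458 RPKM in libraries 3 and 4, and to between 99777 and 116728 RPKM in the controls. Of the 8 tested, 0 were called on the deposited scale or under either scaling, though all differences were negative (median -4.67). Hnf4a, a defining hepatocyte factor, was too low to test. It stood at 0.873 to 1.68 RPKM in the controls. Hepatoma library 2 had no reads of it, and the other hepatoma libraries held at most 0.574 RPKM. In hepatoma libraries 2, 1, 4 and 3, the order of rising hepatocyte sums, Nsdhl stood at 39.6, 28.8, 32.5 and 46.6 RPKM, Hmgcs1 at 26.0, 19.6, 24.0 and 24.7 RPKM, and Dhcr7 at 20.7, 14.3, 20.7 and 19.8 RPKM. Nsdhl and Hmgcs1 rose with the sum over libraries 1, 4 and 3, and library 2 broke that order. Mvd and Sqle were highest in library 2 and lowest in library 3. Without libraries 3 and 4 (a choice made after seeing the data), Mvd differed from the controls by 2.34, Sqle by 1.13 (adjusted p = 0.0498), Dhcr7 by -1.48 (0.0342) and Nsdhl by -2.03 (0.0103), all called by limma. Hmgcs1 then differed by -0.65 and missed the threshold (adjusted p = 0.106).

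Markers of other cells also differed between hepatoma and control, where 85.5% of all tested genes were called higher and 8.73% lower. The 6 listed of 8 stellate cell and fibroblast markers summed to between 20.1 and 83.7 RPKM in controls and to between 457 and 1149 RPKM in hepatoma. All 6 were called higher, but only 3 with equal medians and 4 with quantile normalization, Des and Dcn under neither. Dcn also lost its call in 4 of the 7 fits that left out 1 library (limma, adjusted p up to 0.0976). The 7 listed division markers summed to between 300.4 and 488 RPKM in hepatoma. The 3 listed macrophage and Kupffer cell markers of 10 summed to between 137 and 161 RPKM in controls and to between 107 and 155 RPKM in hepatoma, and its members went opposite ways. Cd68 rose from 31.7 ± 3.04 to 104 ± 18.8 RPKM (1.67, adjusted p = 7.6e-05, limma), without a call under equal medians (0.01). The Kupffer cell marker Clec4f fell from 80.4 ± 10.9 to 16.0 ± 11.4 RPKM (-2.54, adjusted p = 0.0125), though the call was lost whichever of the 3 control libraries was left out (up to 0.0617), and Cd5l differed by -3.02 without passing (0.0531). Both were called lower under both scalings. The 3 listed of 7 endothelial markers, Cdh5 (2.92), Pecam1 (2.08) and Tek (1.08), were called higher and summed to between 6.48 and 11.6 RPKM in controls and to between 45.5 and 74.7 RPKM in hepatoma, and Cdh5 alone kept the call under the scalings. The 4 listed of 8 T and NK cell markers were called higher too, with sums between 1.49 and 2.05 RPKM in controls and between 10.7 and 24.2 RPKM in hepatoma, and none of the 4 under the scalings. Spp1, the 1 listed of 6 cholangiocyte markers, rose from 0.940 ± 0.380 to 221 ± 34.1 RPKM (6.84), also under both scalings. The part of these cell types in the differences of Mvd, Sqle, Hmgcs1, Nsdhl and Dhcr7 was not tested.

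The calls of the other enzymes differed between the steps before and after lanosterol, a difference that was not tested. Of all genes tested for hepatoma, 85.5% were called higher and 8.73% lower. Of 10 enzymes from acetyl-CoA to lanosterol 4 were tested, and Sqle, Mvd and Mvk were called higher and Hmgcs1 lower, with a median of 1.05. That median became -0.61 with equal library medians and -0.49 with quantile normalization, where 3 of the 4 were negative. The mevalonate kinase gene Mvk rose from 9.44 ± 3.33 to 21.9 ± 4.58 RPKM (1.17 ± 0.26, adjusted p = 0.0049, limma), but turned negative under both scalings without passing the threshold.

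Of 9 enzymes after lanosterol 7 were tested, and 6 were called lower, against 8.73% of all genes tested. These 6 were Nsdhl, Dhcr7, Cyp51, Tm7sf2, Ebp and Sc5d. Their segment had a median of -1.37, and of -3.03 and -2.60 under the scalings. The isomerase gene Ebp fell from 168 ± 83.9 to 22.2 ± 4.92 RPKM (-2.72 ± 0.40, adjusted p = 0.00051), close in pathway position to Nsdhl. Cyp51, the lanosterol demethylase, differed by -1.22 and the desaturase gene Sc5d by -1.13. Tm7sf2 differed by -3.94, with 12.7 RPKM in control library 3 against 107 and 93.7 in libraries 1 and 2. Cyp51 and Tm7sf2 each missed the threshold without control library 1 or 2, with adjusted p up to 0.0533 and 0.0611. Lbr, which encodes the other sterol C14 reductase and anchors chromatin at the nuclear envelope, rose from 1.80 ± 0.524 to 40.03 ± 8.39 RPKM (3.87 ± 0.21, adjusted p = 8.6e-07), also under both scalings.

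**Figure D3:**
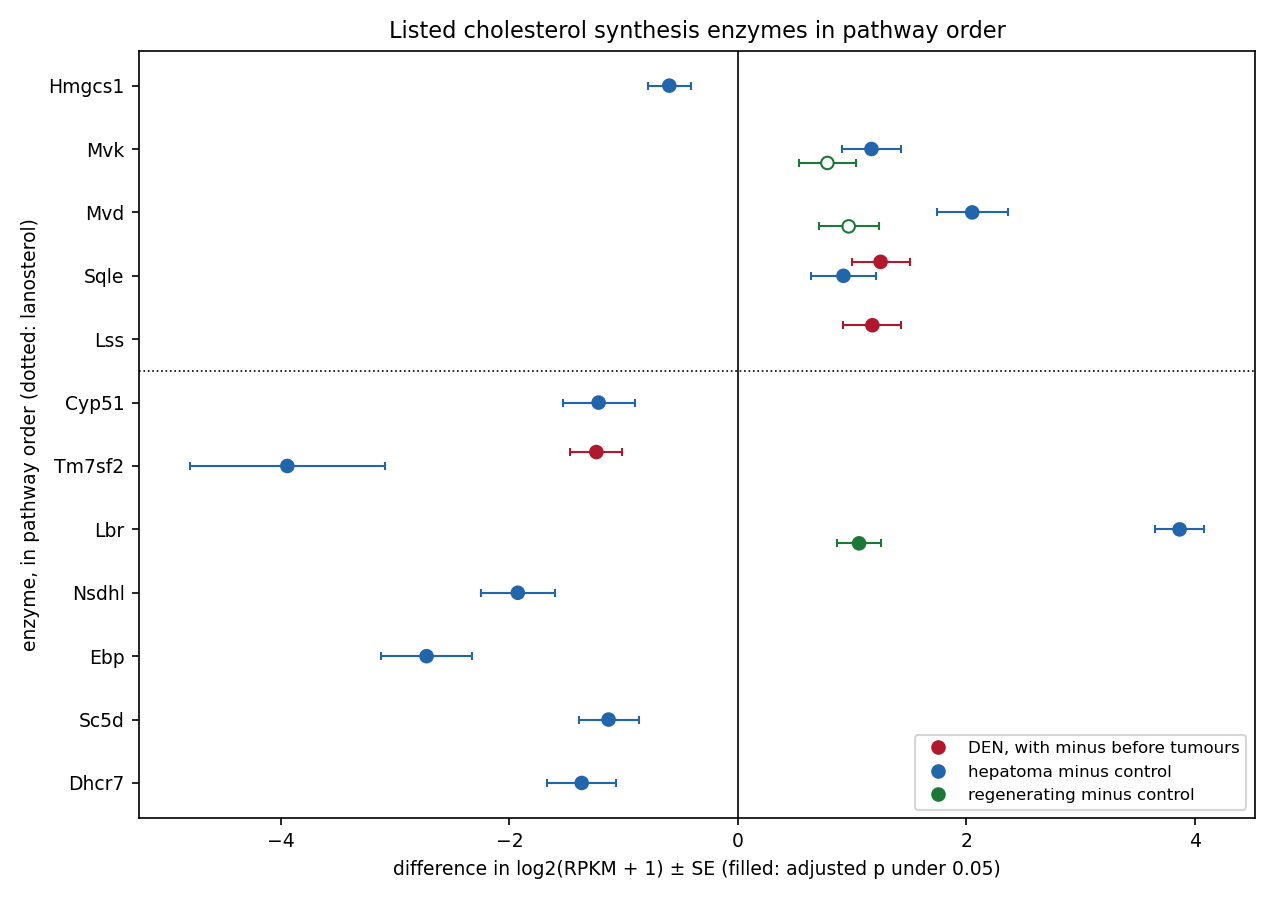
Difference in log2(RPKM + 1) with SE for listed synthesis enzymes in pathway order, with the dotted line at lanosterol; filled points passed an adjusted p of 0.05. In hepatoma 3 of 4 tested enzymes above the line were called higher and 6 of 7 below it lower. Of all genes tested for hepatoma, 85.5% were called higher and 8.73% lower. Under equal medians or quantile normalization the early enzymes Mvk and Sqle turn negative.

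Among the genes of uptake and intracellular transport 9 of 11 were tested in hepatoma, and 4 were called higher and 4 lower. The shares over all tested genes were 85.5% higher and 8.73% lower. The VLDL receptor gene Vldlr differed by 2.11, the lysosomal carrier Npc2 by 1.53, Stard3 by 1.29 and Stard4, a cytosolic sterol carrier, by -1.01. Under equal medians 0 of the 9 were called higher, and under quantile normalization 2, Vldlr and Npc2, while those called lower went from 4 to 6 under each. Mylip, named after its values were seen, was called higher (0.81) and turned to a call of lower under both (-0.85 and -0.69).

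Of 12 SREBP control genes 8 were tested, and 5 were called higher and 2 lower. For these and the lists that follow, the shares over all tested genes were 85.5% higher and 8.73% lower. The 2 lower genes, named after their values were seen, were Insig1 and Insig2, which hold SREBP in the endoplasmic reticulum. Insig1 fell from 127 ± 61.3 to 32.3 ± 6.41 RPKM (-1.81 ± 0.37, adjusted p = 0.0036), on the side of Nsdhl and Dhcr7. The called higher genes were the SREBP proteases Mbtps1 (1.54) and Mbtps2 (1.57), Scap (1.16), Erlin2 (0.75) and Srebf2, the gene of SREBP-2. Srebf2, also named after its values were seen, rose from 14.4 ± 3.06 to 29.7 ± 6.84 RPKM (0.99 ± 0.24, adjusted p = 0.0072, limma). It turned to -0.68 and -0.49 under the scalings without passing. None of the 8 was called higher under either scaling. Those called lower went from 2 to 4 of the 8 under each, and Erlin2 was among them (-0.92 and -0.87). Of the 10 genes of isoprenoid side branches 7 were tested and 6 called higher, among them Fntb (2.93), Nus1 (2.08), Ggps1 (1.47) and Pggt1b (1.00). With equal medians Fntb alone of the 7 was called higher and 2 were called lower, among them Pggt1b (-0.66, adjusted p = 0.0122). With quantile normalization 2 were called higher and 1 lower. The acyltransferase gene Soat1, which esterifies cholesterol, differed by 4.49 and its liver counterpart Soat2 by -3.08 (adjusted p = 0.0258), and Lcat (-4.32) did not pass. Soat2 was not called without control library 1 or 2 or hepatoma library 1 (adjusted p up to 0.111). The fatty acid enzymes Elovl6 (1.80) and Acaca (0.76) were called higher, but under the scalings Elovl6 was not called (0.14 and 0.23) and Acaca turned to a call of lower (-0.90 and -0.92). Fasn (1.67) and Gpam (-1.36) did not pass, and Gpam was called lower under both scalings (-3.03 and -2.82). Of the efflux genes Abcg5 (-1.26) and Nr1h3 (-1.82) were called lower and Nr1h2 (0.91) higher, which turned to -0.75 and -0.41 under the scalings, and Abcg4 and Abcg8 were too low to test. Bile acid synthesis had 4 of 6 tested genes called lower, among them Cyp39a1 (-3.78), Cyp7a1 (-2.62), its rate-limiting enzyme, and Hsd3b7 (-1.76), while Ch25h differed by 4.48. Cyp7a1 was not called without control library 1 or 2 or hepatoma library 1 (adjusted p up to 0.0711).

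**Figure D4:**
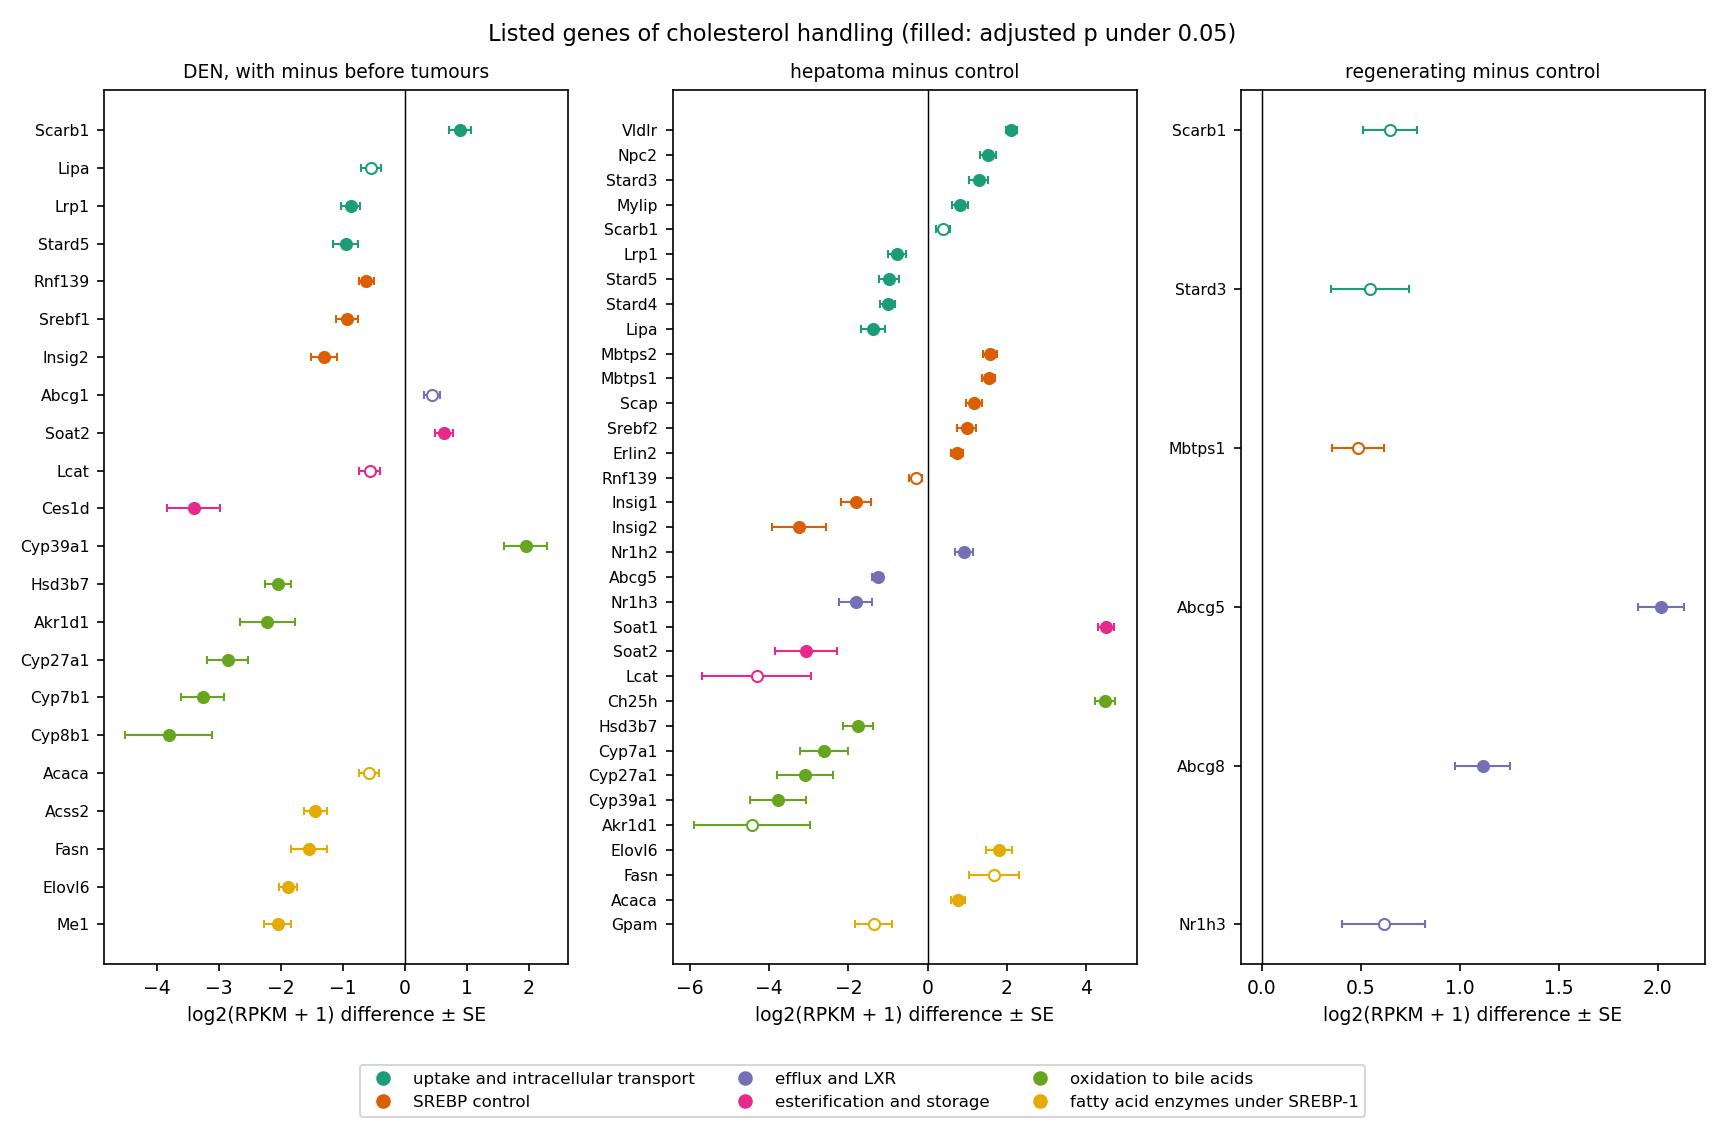
Difference in log2(RPKM + 1) with SE for listed genes of cholesterol handling in the 3 comparisons, coloured by list; filled points passed an adjusted p of 0.05. In regenerating liver only Abcg5 and Abcg8 of the 6 genes drawn were filled, and Abcg8 missed the threshold under either scaling; in hepatoma the genes called higher in SREBP control were not so under either scaling.

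In regenerating liver the table listed Mvd alone of the 8 genes. Its controls are those of the hepatoma comparison, and the 4 regenerating libraries held 7.93, 13.7, 11.7 and 16.6 RPKM. The lowest regenerating library lay just above the highest control, 7.76 RPKM, so the groups did not overlap, as for 93% of the tested genes. Mean Mvd was 12.5 ± 3.63 RPKM (n = 4) against 5.89 ± 2.05 RPKM, and the log2 difference of 0.97 ± 0.26 did not pass the threshold (limma, adjusted p = 0.132). Its limma p without adjustment was 0.0050. Listing already required an uncorrected p under 0.05, so passing that level holds little further information on Mvd. Of the 1703 genes tested 22% were called, 21.2% higher and 0.763% lower, with a median of 0.53, and Mvd stood above 86.4% of them. Adjusted over the listed genes in place of the annotation, p was 0.0097 (limma). That adjustment leaves out of account that these genes were selected by p. Leaving out single libraries gave adjusted p between 0.0771 and 0.368.

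Division markers moved with Mvd in part. The 7 listed summed to 66.7, 117, 46.3 and 159 RPKM in regenerating libraries 1 to 4, and both sum and Mvd were highest in library 4, whereas the sum was lowest in library 3 and Mvd in library 1. Genes outside the lists whose level followed Mvd most closely over the 7 libraries were Adam17 (r = 0.990), Sec24b (0.987), Cbs (0.986), C2cd5 (0.986) and Dync1li1 (0.985). The same measure for the mean profile of the 5 hepatoma genes, which run in opposite directions, gave Cxcl11 (0.930), Ndufa4 (0.916), Mrps16 (0.912), Glrx5 (0.909) and Gzma (0.894).

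Among the other synthesis enzymes tested in regenerating liver, Lbr rose from 1.80 ± 0.524 to 4.87 ± 1.26 RPKM (1.06 ± 0.19, adjusted p = 0.0295), and Mvk, which acts shortly before Mvd, differed by 0.78 without passing (0.211). Lbr was not called under the scalings, and lost its call in 6 of the 7 fits that left out 1 library (adjusted p up to 0.13), all but regenerating library 3. Abcg5 and Abcg8, whose products export sterols into bile, were called higher: Abcg5 rose from 1.84 ± 0.0601 to 10.5 ± 1.05 RPKM (2.02 ± 0.12, adjusted p = 8.1e-05), under both scalings too, and Abcg8 differed by 1.11 (0.0106), without a call under the scalings or without control library 1 (0.0646). Scarb1 differed by 0.65 and Stard3 by 0.54, and neither of these 2 tested uptake genes passed (limma, adjusted p = 0.0505 and 0.333). Mbtps1 (0.49) and Nr1h3 (0.61) did not pass, and Dhdds of the dolichol branch was called higher (0.97, adjusted p = 0.0106), though not under the scalings, nor without control library 1 or 2 (0.0646 and 0.0550).

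Mvd was the only gene of the 8 in both rat tables, so hepatoma and regenerating liver could be set against each other for it alone, among 1752 genes listed in both. Hepatoma libraries held 16.9 RPKM or more, and regenerating libraries 16.6 RPKM or less. How often these groups stand apart over all genes was not computed. The log2 difference of hepatoma over regenerating liver was 1.08 ± 0.28 (limma, adjusted p = 0.0395), where 86.3% of 1673 tested genes were called, 81.5% higher and 4.72% lower, with a median of 1.47. It turned to -0.46 with equal library medians and to -0.45 with quantile normalization, with adjusted p of 1 in both. Leaving out control library 2, hepatoma library 1, 2 or 4, or regenerating library 1, 2 or 3 ended the call, with adjusted p of 0.0636, 0.106, 0.114, 0.113, 0.114, 0.0705 and 0.103 in that order.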

How the data were processed

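RNA sequencing of 17 liver libraries was deposited as 3 tables, 1 per comparison, each with a value per gene and library. Per the labels' protocols, RNA was extracted with Trizol or on columns and passed a check of integrity. No aligner, genome build, annotation or counting tool is given in the sources used here. The authors' values were read as RPKM from the steps of low values, since the file headers name no unit, and a value of 0.001 stands for no reads. Each table further holds a log2 ratio and, per the file headers, a Holm-corrected p-value. The deposited p-values matched, within 1%, an uncorrected two-group test with equal variances on the deposited values in all 4649, 9082 and 2093 genes with a p, so no correction is in them. None exceeded 0.05, and these columns were used for nothing else.

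Tests ran on log2(RPKM + 1) in limma 3.58.1 under R 4.3.3, two-sided, with robust and trend options. A gene was tested if its RPKM reached 1 in at least the number of libraries of the smaller group. Each table was fitted whole with the 2 groups of its comparison, and hepatoma and regenerating liver were compared in a fit of the 3 rat groups on genes listed in both tables, where control values were identical. Benjamini-Hochberg adjustment counted all protein-coding genes, 22028 genes of GENCODE M21 for mouse and 23154 of RefSeq GRCr8 for rat, with a threshold of 0.05, because the tables are preselected. The fits were also run on simulated tables with noise drawn independently for each gene and library. Their outcome is not given here, and effects shared by a whole library were not simulated. Summaries and plots used pandas 2.3.3, numpy 2.4.6 and matplotlib 3.10.9 under Python 3.11.15.

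The genes and the lists were chosen with earlier results of these data known. Named were all 8 genes wherever listed, up to 4 genes per list and table by smallest p (all where 5 or fewer were listed), and the 5 genes outside the lists that correlated best with the mean of the tested genes. Enzymes beyond that number are named to complete the pathway, and some genes of the lists are not reported here. Alternatives were a pseudocount of 0.1, no filter or a filter at 5 RPKM, equal library medians, quantile normalization, a replicate block, adjustment over listed genes, a fit of the 3 rat groups, and leaving out each library. Total depth is unknown, and counting errors cover counting only.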

Additional observations from a re-analysis of the deposited data

Results flagged for a closer look

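Dhcr7 in hepatoma library 1 was 14.3 RPKM, apart from the other 3 hepatoma libraries, which held 19.8 to 20.7 RPKM. Its gap to the nearest library was 0.860 of the range of the group, above Dixon's critical value for 4 samples at the 95% level. Groups of 4 were checked in 6 cases, and chance alone exceeds this limit in about 1 of 20 groups. Library 1 was also the lowest of the hepatoma libraries for Hmgcs1 and Nsdhl. Without it Dhcr7 remained lower in hepatoma than in the controls.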

How the results depend on the processing

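For members, Nsdhl and Dhcr7 kept direction and call under every alternative that could be fitted, with differences from -3.59 to -1.70 and from -3.03 to -1.16. In DEN liver Sqle and Lss stayed higher in every fit (1.07 to 1.89 and 1.02 to 1.72); their calls were lost only on leaving out libraries. Members called higher then ranged from 0 to 2 in DEN, 1 to 2 in hepatoma and 0 to 1 for hepatoma over regenerating liver.

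With equal library medians or quantile normalization, 0 members were higher in hepatoma, Sqle turned to -0.74 and -0.60, and Mvd over regenerating liver to -0.46 and -0.45, with 0 called. A pseudocount of 0.1 also gave 0 there (Mvd 1.14, adjusted p = 0.0542, limma). Adjusted over listed genes, which leaves their selection by p out of account, 1 member was called higher in regenerating liver. The cause was not tested.

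The same replicate numbers did not pair the libraries: deviations of same-numbered libraries correlated between -0.16 and -0.02 in DEN, -0.22 and -0.15 in hepatoma and -0.32 and 0.15 in regenerating liver. With the replicate block 1 member was higher in hepatoma (Sqle 0.93, adjusted p = 0.230; Hmgcs1 -0.61, 0.105; limma), 242 genes were lower in hepatoma, and 23 were higher and 2 lower in regenerating liver.

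Over all genes, the filter at 5 RPKM gave 289 higher and 1071 lower in DEN and 149 and 4 in regenerating liver, by testing fewer genes; no filter gave 22 lower in regenerating liver. Equal medians and quantile normalization gave 612 and 589 lower in DEN; 2029 and 2514 higher and 2389 and 1878 lower in hepatoma; 19 and 20 higher and 59 and 46 lower in regenerating liver; 461 and 510 higher and 525 and 456 lower for hepatoma over regenerating liver. Adjustment over listed genes, with the same limit, gave 1561 higher and 65 lower in regenerating liver. The fit of 3 rat groups, restricted to genes in both tables, gave 1 member higher, 0 lower, 1551 genes higher and 63 lower in hepatoma, and 229 and 3 in regenerating liver.

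Leaving out single libraries, genes called higher and lower ranged over 409 to 631 and 916 to 1956 in DEN, 6720 to 6967 and 346 to 838 in hepatoma, and 20 to 338 and 1 to 15 in regenerating liver. Preselection on p means that unlisted genes could not be tested, and both scalings rest on genes selected for a difference.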
